A study of Mus musculus with 18 samples.

Results

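The nuclear genes for the proteins of the mitochondrial ribosome were followed through all groups of a mouse series on the m6A methyltransferase subunits METTL14 and METTL3. Members were the protein-coding genes whose GENCODE symbol begins with Mrpl or Mrps followed by a digit, matched by Ensembl identifier. They numbered 78 of 21918 protein-coding genes in the files, 49 named for the large subunit (Mrpl) and 29 for the small (Mrps). Another 5 identifiers with such a symbol are not annotated as protein-coding and were left out.

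Poly(A) RNA was sequenced after 7 days from C57BL/6 samples that the labels call embryoid bodies, the floating aggregates in which embryonic stem cells differentiate. In the Mettl14 line the groups were a conditional knockout (CKO) given 5 µM GSK343, the same knockout with DMSO, and a control. In the Mettl3 line they were a knockout given 5 µM GSK-J4, the knockout with DMSO, and a control. GSK343 inhibits the histone methyltransferase EZH2, GSK-J4 inhibits the histone demethylases KDM6A and KDM6B, and no control received either inhibitor. Each of the 6 groups had 3 libraries, 18 in all. The labels do not say how the alleles were deleted, whether a line was 1 clone, or whether replicates were separate cultures, and the p-values cover only variation among these libraries, possibly technical.

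Mitochondria keep a ribosome of their own, descended from that of bacteria, which translates the mRNAs of the mitochondrial genome. Those mRNAs all encode membrane subunits of the respiratory chain and ATP synthase. The ribosome holds a few RNAs encoded in the mitochondrion, while every one of its proteins is encoded in the nucleus, made in the cytosol and imported. Some of the proteins have bacterial relatives and others are found in mitochondria only. The large subunit forms peptide bonds and the small subunit decodes mRNA.

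The symbol does not always give the subunit. Mrps18a (mL66) and Mrps30 (mL65) encode proteins that sit in the large subunit of the mammalian mitoribosome. Mrps18b (mS40) and Mrps18c (bS18m) are the small-subunit paralogs of Mrps18a. Mrps36 encodes KGD4, a component of the 2-oxoglutarate dehydrogenase complex and not a ribosomal protein. Of the 78 members, 48 were classed as having a relative among bacterial ribosomal proteins and 30, Mrps36 among them, as having none there. The members lie on 17 chromosomes, 11 of them on chromosome 11.

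Many members share a start region with another gene. For 33 of 78 (42.3%) a protein-coding gene on the other strand begins within 1000 bases of the member's start, against 10.8% of 22028 protein-coding genes in GENCODE. Mrpl46 and Mrps11 form such a pair with each other. Promoters from RefSeq (GRCm38.p6), each with 250 bases before and 50 after the start, were found for 69 members. The core NRF1 motif was in 18.8% of them against 6.9% of 16514 protein-coding promoters, the ETS motif CCGGAAG in 34.8% against 12.3%, and an extended YY1 motif in 7.2% against 1.0%. TATAAA was in 5.8% against 12.8%. Both strands were searched, a promoter counted once per motif, and median GC content was 58.3% against 57.0%. NRF1, the ETS factor GABP and YY1 are known regulators of nuclear genes for mitochondrial proteins, but a match of letters does not show binding.

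The promoters below belong to the 5 members with an adjusted p under 0.05 in a comparison between groups of a line. All are on the minus strand and are written 5′ to 3′ in GRCm38.p6, with capitals for matches to the NRF1 or ETS letters on either strand. Mrpl17 holds both motifs (chr7:105811038-105811337). Mrpl18 (chr17:12916042-12916341) and Mrps33 (chr6:39810887-39811186, as the reverse complement) hold the ETS letters. Mrpl42 (chr10:95501900-95502199) and Mrpl47 (chr3:32736706-32737005) hold none of the motifs searched in full. Shorter or variant forms of the motifs were not searched.
Mrpl17: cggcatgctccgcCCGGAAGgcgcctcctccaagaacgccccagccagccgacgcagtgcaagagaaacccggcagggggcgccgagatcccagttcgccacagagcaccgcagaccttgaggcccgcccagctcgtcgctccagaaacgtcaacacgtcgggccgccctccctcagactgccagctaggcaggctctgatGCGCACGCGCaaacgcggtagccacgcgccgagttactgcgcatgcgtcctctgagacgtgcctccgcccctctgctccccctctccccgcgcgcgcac
Mrpl18: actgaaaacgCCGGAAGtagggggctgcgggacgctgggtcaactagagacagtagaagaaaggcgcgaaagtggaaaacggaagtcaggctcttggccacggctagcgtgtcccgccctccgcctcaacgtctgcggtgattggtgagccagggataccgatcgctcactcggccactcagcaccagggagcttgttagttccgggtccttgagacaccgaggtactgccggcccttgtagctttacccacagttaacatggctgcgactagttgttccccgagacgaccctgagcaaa
Mrps33: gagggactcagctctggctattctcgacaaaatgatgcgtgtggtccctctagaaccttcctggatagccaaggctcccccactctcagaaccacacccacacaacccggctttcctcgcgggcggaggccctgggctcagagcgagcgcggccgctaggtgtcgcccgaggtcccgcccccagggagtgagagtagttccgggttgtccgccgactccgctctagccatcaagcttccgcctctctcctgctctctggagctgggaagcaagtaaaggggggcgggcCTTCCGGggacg
Mrpl42: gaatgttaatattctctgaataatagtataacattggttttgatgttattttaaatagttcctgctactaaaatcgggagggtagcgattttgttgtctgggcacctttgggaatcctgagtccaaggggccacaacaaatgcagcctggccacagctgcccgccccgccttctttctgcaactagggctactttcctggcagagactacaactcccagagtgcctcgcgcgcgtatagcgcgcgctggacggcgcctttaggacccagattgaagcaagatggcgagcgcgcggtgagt
Mrpl47: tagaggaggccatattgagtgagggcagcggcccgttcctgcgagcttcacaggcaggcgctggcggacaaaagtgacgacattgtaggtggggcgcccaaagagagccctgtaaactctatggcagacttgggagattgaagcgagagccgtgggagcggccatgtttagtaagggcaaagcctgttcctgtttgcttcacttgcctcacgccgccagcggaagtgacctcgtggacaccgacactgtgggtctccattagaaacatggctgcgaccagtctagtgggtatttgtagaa

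Across the series, total counts per library ran from 721853 to 32540164. The shallowest were replicate 3 with GSK343 (721853) and replicate 3 of the Mettl14 knockout (1303697), and the GSK-J4 libraries had 3395675 to 8289423. GSK-J4 libraries were least alike, with Spearman correlations of 0.780 to 0.828 between replicates, against 0.899 to 0.978 within the other groups. Mettl14 had 12.5 to 17.7 CPM in knockouts with GSK343, 17.1 to 24.6 in knockouts and 17.6 to 19.2 in controls of its line. Mettl3 had 6.95 to 23.9 CPM in knockouts with GSK-J4, 6.90 to 26.0 in knockouts and 18.8 to 34.1 in controls. A count over a whole gene does not check a deletion of part of it. Of 6 stem cell markers, Pou5f1, Nanog and Zfp42 had a median of 0 over the 18 libraries. So did Pax6 and Sox1 of 5 neural or ectoderm markers, and T, Mixl1, Tbx6, Hand1 and Myh6 of 7 mesoderm markers. Among 6 endoderm markers, Sox17, Foxa2, Afp and Ttr did. Medians under 1 CPM numbered 5, 2, 5 and 5 in these lists in turn, so each list held at least 1 marker at that level or more. The lists summed to 22.0 to 110, 23.7 to 195, 1.84 to 53.7 and 0 to 16.5 CPM. All 10 fibroblast or mesenchyme markers were present, summing to 9810 to 36500 CPM. Whether these levels match the labelled embryoid bodies was not tested.

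Values per library below are CPM, counts scaled to a common library total and adjusted by the trimmed mean of M values (TMM) over all 18 libraries. Most members were expressed at moderate and similar levels. Over the 15 libraries without GSK-J4, 75 of the 78 averaged 10 to 100 CPM, with a median of 30.7. Mrpl52 exceeded 100 CPM, and Mrps18c and Mrpl53 were under 10. Mrpl53 had 0 counts in every library, which allows 0.0923 CPM in the deepest library and 4.36 CPM in the shallowest (3 counts). Exons of other genes on its own strand (Gm42688 and Ccdc142os) cover 88.0% of its exon bases. The part of that overlap in its count was not tested. The other 77 members passed the filter on low counts in each comparison.

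Per kb of exon the median member had 11.98 CPM. The highest were Mrpl52 with 95.4 ± 43.5 CPM per kb (SD, n = 15), Mrps21 with 75.4, Mrpl54 with 63.0, Mrpl12 with 57.9 and Mrpl18 with 51.8. Mrpl12 (bL12m) forms the stalk that recruits translation factors. After Mrpl53, the lowest were Mrpl33 with 1.84 ± 0.79 CPM per kb, Mrpl48 with 2.46, Mrpl15 with 2.86 and Mrps10 with 3.11. The low end depends on annotated length, since all exons of Mrpl33 add up to 7.33 kb but its principal transcript has 0.478 kb. Measured per kb of principal transcript, 3 of the 5 highest and 2 of the 5 lowest were the same.

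**Figure D1:**
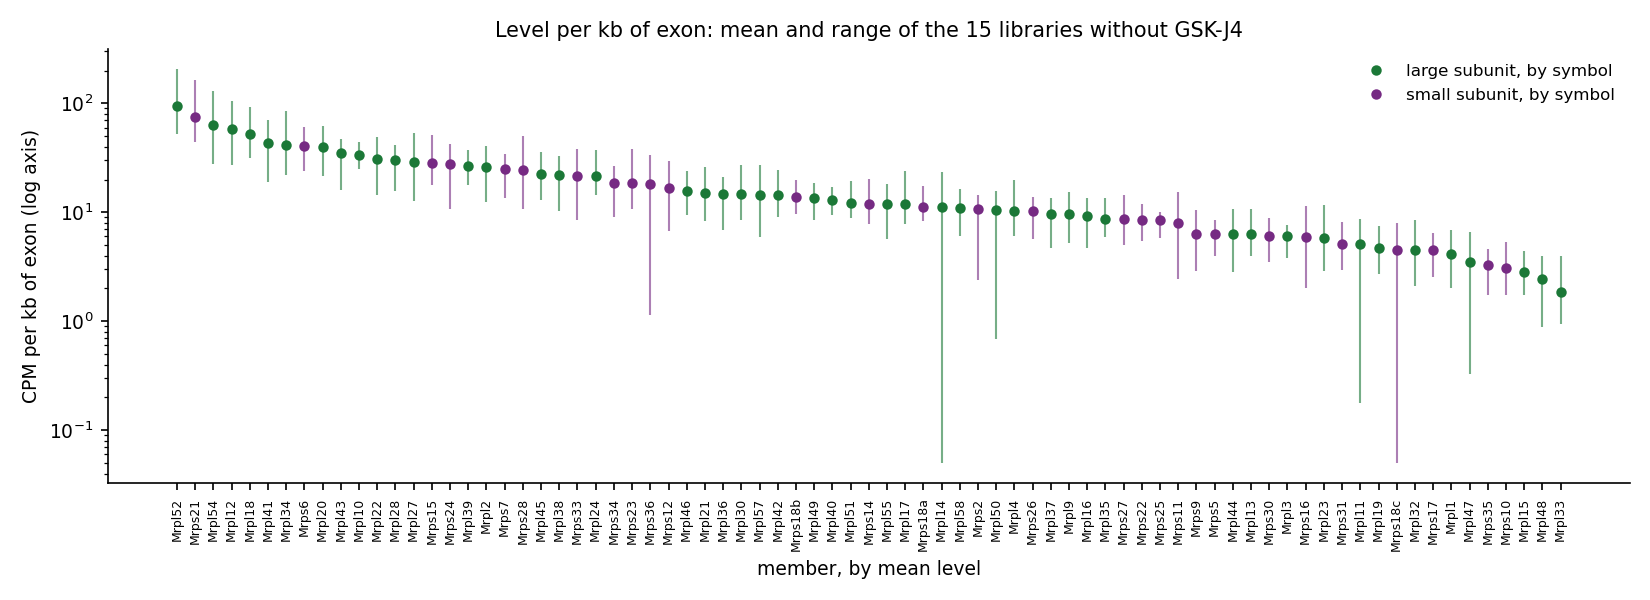
Level of 77 members in TMM-scaled CPM per kb of exon (log axis), ordered by mean; points are means of the 15 libraries without GSK-J4 and lines their range, with zeros drawn at 0.05. Most members lie within the same range of levels, with Mrpl52 highest at 95.4 and Mrpl33 lowest at 1.84, and the lines of Mrpl14 and Mrps18c reach the zero mark.

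Summed over all members, the level was 2780 ± 310 CPM with GSK343, 3033 ± 1020 in Mettl14 knockouts and 2577 ± 457 in Mettl14 controls (SD, n = 3 each). In the Mettl3 line it was 3086 ± 282 CPM with GSK-J4, 2541 ± 399 in knockouts and 3166 ± 428 in controls. The wide spread of the Mettl14 knockout came from replicate 1, with 4192 CPM against 2657 and 2250 in the other replicates. The sum of large-subunit genes divided by that of small-subunit genes averaged between 1.85 (Mettl14 controls) and 2.04 (GSK-J4), with SDs of 0.038 to 0.27. Group means of this ratio were thus close, but single libraries ran from 1.74 to 2.25, both with GSK-J4. These sums were not tested, and in bulk RNA fewer cells of a type and less RNA per cell cannot be told apart.

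**Figure D2:**
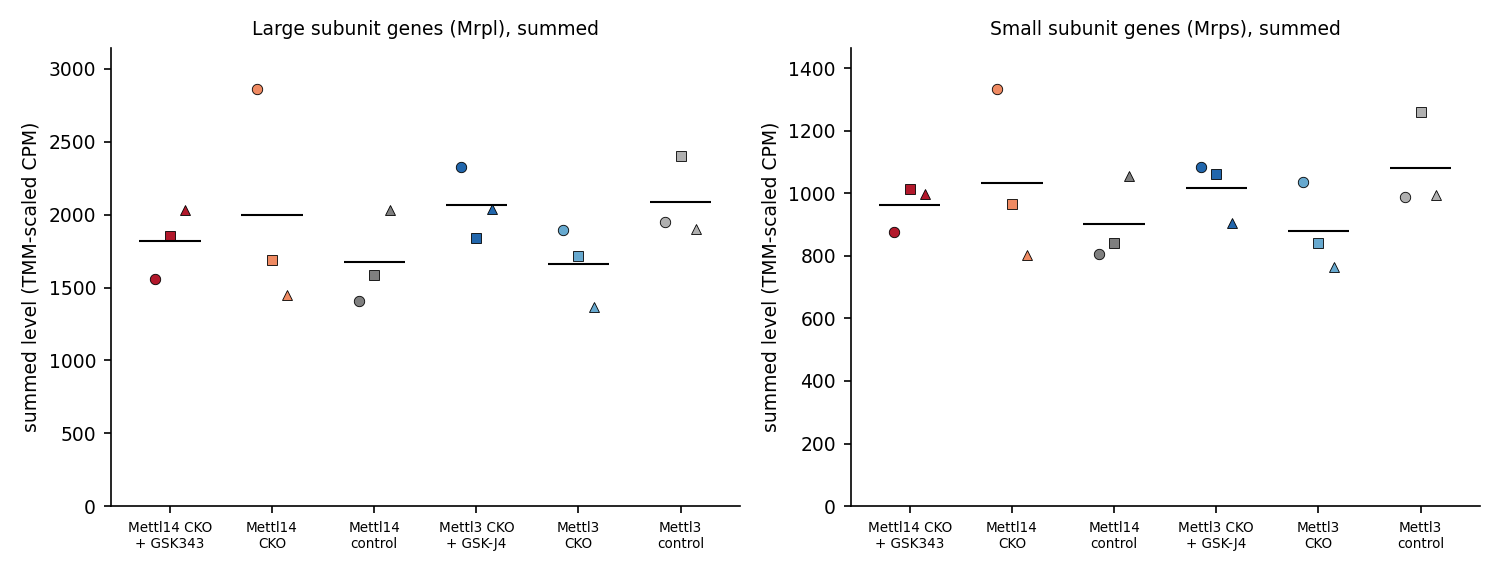
Summed TMM-scaled CPM of large-subunit (left) and small-subunit (right) genes in each library; circles, squares and triangles are replicates 1, 2 and 3, and bars are group means. Replicate 1 of the Mettl14 knockout is highest in both panels, and groups of a line overlap except for large-subunit genes in the Mettl3 line, where knockouts at 1368 to 1893 CPM lie below controls at 1904 to 2399 CPM.

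The first question is how loss of Mettl14 changed these genes. No member passed an adjusted p of 0.05 by edgeR's quasi-likelihood test, which called 0% of the 13882 genes tested. At an unadjusted p under 0.05 there were 2 members, against 1.5% of all genes, and DESeq2 also called 0 members and 0% of all genes. Most members were nonetheless above the control by a small amount: 63 of 77 log2 fold changes were positive, against 51.7% of all genes tested, with a median of 0.26 against 0.01 for all genes. Large-subunit genes had a median of 0.27 and small-subunit genes 0.25. Without knockout replicate 1 the median was -0.06, so the direction rested on that library.

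Mrps15, a small-subunit protein with a bacterial relative, had the smallest p. It had 86.2, 33.5 and 65.0 CPM in the Mettl14 knockouts, against 30.2, 33.5 and 42.4 CPM in the controls. Knockout replicate 2 stood within the control range. The log2 fold change was 0.82 ± 0.32 (standard error; adjusted p = 1.00 by edgeR). Mrpl55 (bL31m) had 18.5, 12.3 and 17.6 CPM in the knockouts, against 6.74, 7.04 and 11.4 CPM in the controls. Those groups did not overlap, and the log2 fold change was 0.95 ± 0.45 (adjusted p = 1.00 by edgeR). In all, 3 members were higher in the knockout without overlap and 0 lower, where 2.9% and 4.77% of all genes were. Mrps33 and Mrpl18 had log2 fold changes of 0.65 ± 0.31 and 0.59 ± 0.30 (adjusted p = 1.00 by edgeR for both).

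Other ribosomal and respiratory genes moved with the same library. In knockout replicate 1 the 83 cytosolic ribosomal protein genes summed to 72440 CPM, against 35040 and 27040 in the other knockouts and 27860 to 43410 in the controls. The 76 nuclear-encoded respiratory chain genes summed to 13530 CPM there, against 7705 and 6020 in the other knockouts and 6569 to 9524 in the controls. Of the cytosolic ribosomal genes 78 of 80 tested had positive log2 fold changes (median 0.42), and of the respiratory genes 66 of 75 (median 0.34), with 0 called in either list. Their part in the members' values was not tested.

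The next question, named in the series design for this line, is what the EZH2 inhibitor did in the Mettl14 knockout. No member was called between knockouts with and without GSK343, where 0.0288% of the 13882 genes were. At an unadjusted p under 0.05 there were 2 members, against 5.74% of all genes, and DESeq2 called 0 members and 0.404% of all genes. The log2 fold changes were mostly below 0, in 53 of 77 members against 53.2% of all genes, with medians of -0.21 for members and -0.03 for all genes. The medians were -0.22 for the large and -0.13 for the small subunit. The members' median was 0.09 without replicate 1 of the untreated knockout and -0.06 without GSK343 replicate 1. Of the cytosolic ribosomal genes 72 of 80 tested were also below 0 (median -0.25), as were 67 of 75 respiratory chain genes (median -0.29), with 0 called in either list. Fibroblast or mesenchyme markers summed to 19000 to 19800 CPM with GSK343 against 20300 to 27200 CPM in untreated knockouts. Endoderm markers summed to 0 to 2.70 CPM against at least 3.51 CPM in each untreated knockout. These endoderm sums were near the floor, since 3 counts were 4.36 CPM in GSK343 replicate 3 and 4 of the 6 markers had a median of 0. The other marker lists overlapped between these groups. The part of these lists in the members' values was not tested.

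Mrpl11 (uL11m), which forms the base of the stalk, had the smallest p in this comparison. It had 7.59, 11.9 and 14.6 CPM with GSK343, against 27.8, 22.3 and 15.8 CPM in untreated knockouts. Every treated library was below every untreated one, though the lowest untreated value was close to the highest treated value. The log2 fold change was -1.07 ± 0.43 (adjusted p = 0.752 by edgeR). Mrps11 and Mrps10 were lower without overlap as well, at -0.83 ± 0.39 (adjusted p = 0.861 by edgeR) and -0.69 ± 0.35 (adjusted p = 0.897), and Mrpl57 was at -0.71 ± 0.36 (adjusted p = 0.885) with overlap. In total 5 members were lower and 1 higher without overlap, where 5.29% and 4.51% of all genes were.

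Against the controls, the knockout with GSK343 had no called member, while 0.166% of the genes tested were called. An unadjusted p under 0.05 was found for 1 member, against 4.34% of all genes, and DESeq2 called 0 members and 0.523% of all genes. The members' median was 0.05, with 45 of 77 positive, against -0.01 for all genes and 48.5% positive. Leaving out single libraries moved it between -0.07 (without GSK343 replicate 2) and 0.21 (without control replicate 3). Mrpl11 had 13.4, 20.7 and 28.1 CPM in the controls, and its log2 fold change was -0.94 ± 0.43 (adjusted p = 1.00 by edgeR). Mrpl55 was at 0.82 ± 0.45, Mrps18b at 0.62 ± 0.34 and Mrps6 at 0.53 ± 0.32 (adjusted p = 1.00 by edgeR for each). Mrpl55 was among 4 members higher without overlap in this comparison, with 2 lower, where 4.29% and 7.17% of all genes were.

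In the Mettl3 line the knockout had no called member either, and 0% of the 16782 genes tested were called by edgeR. This fit estimated spread from all libraries of the line, the variable GSK-J4 libraries included. Its common biological coefficient of variation, the spread between replicates relative to the mean, was 0.843, against 0.394 in the Mettl14 line. An unadjusted p under 0.05 was found for 1 member, against 1.88% of all genes, and DESeq2 called 0 members and 0.0306% of all genes. Here the log2 fold changes were mostly negative, in 71 of 77 members against 50.9% of all genes, with a median of -0.30 against -0.01. The large subunit was at -0.29 and the small at -0.31. Leaving out any 1 library kept the median between -0.43 (without knockout replicate 1) and -0.18 (without control replicate 2). Without overlap 14 members were lower and 0 higher, where 6.61% and 6.47% of all genes were.

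Mrpl18 (uL18m), a large-subunit protein with a bacterial relative, had the smallest p. It had 57.7, 56.1 and 44.4 CPM in the Mettl3 knockouts, against 80.6, 104.9 and 76.6 CPM in the controls. The groups did not overlap, and the log2 fold change was -0.73 ± 0.24 (adjusted p = 1.00 by edgeR). Mrpl14 had 10.3, 3.99 and 5.50 CPM in the knockouts, against 12.4, 22.1 and 15.8 CPM in the controls, a log2 fold change of -1.35 ± 0.64 (adjusted p = 1.00 by edgeR). Both genes were lower in each of the 3 knockout libraries. Mrpl41 was at -0.73 ± 0.37 and Mrpl12 at -0.50 ± 0.26 (adjusted p = 1.00 by edgeR for both).

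Among related genes, 80 of 81 cytosolic ribosomal protein genes tested and 71 of 75 respiratory chain genes were also below 0 in the Mettl3 knockout, with medians of -0.40 and -0.36 and 0 called. Mitoribosome assembly and rRNA factors, the proteins that process and fold the ribosomal RNA, had 4 of 24 positive and a median of -0.20. Their common movement with the members was not tested. Markers of cell types differed between these groups as well. The 10 fibroblast or mesenchyme markers summed to 32700 to 36500 CPM in the Mettl3 knockouts against 20800 to 30200 CPM in controls. In the same order, the 5 neural or ectoderm markers summed to 173 to 195 CPM against 111 to 148 CPM. The 5 macrophage markers summed to 8.32 to 18.9 CPM against 6.26 to 8.12 CPM, ranges that nearly touch. Of these 5, 4 had a median under 1 CPM over the 18 libraries, with Adgre1 and Tyrobp at 0. The other 4 marker lists overlapped, and the part of these differences in the members' values was not tested. Control replicate 2 had the highest sums of the line, 51000 CPM for cytosolic ribosomal genes and 3660 CPM for members.

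Set side by side, 58 members had a positive log2 fold change in the Mettl14 knockout and a negative one in the Mettl3 knockout, 1 the reverse, 13 were negative in both and 5 positive in both. The difference between the knockout effects, Mettl14 minus Mettl3, was fitted on all 18 libraries. It was above 0 for 71 of 77 members against 48% of all genes, with a median of 0.59 against -0.03. No member was called, and 0% of the 16326 genes tested were, with 5 members at an unadjusted p under 0.05, against 2.24% of all genes, and 0 members called by DESeq2, which called 0.116% of all genes. Mrpl18 differed by 1.29 ± 0.41, Mrps33 by 1.17 ± 0.49, Mrpl30 by 1.06 ± 0.48 and Mrpl12 by 1.05 ± 0.48 (log2, SE; adjusted p = 1.00 by edgeR for each). Without replicate 1 of the Mettl14 knockout the median difference was 0.26.

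**Figure D3:**
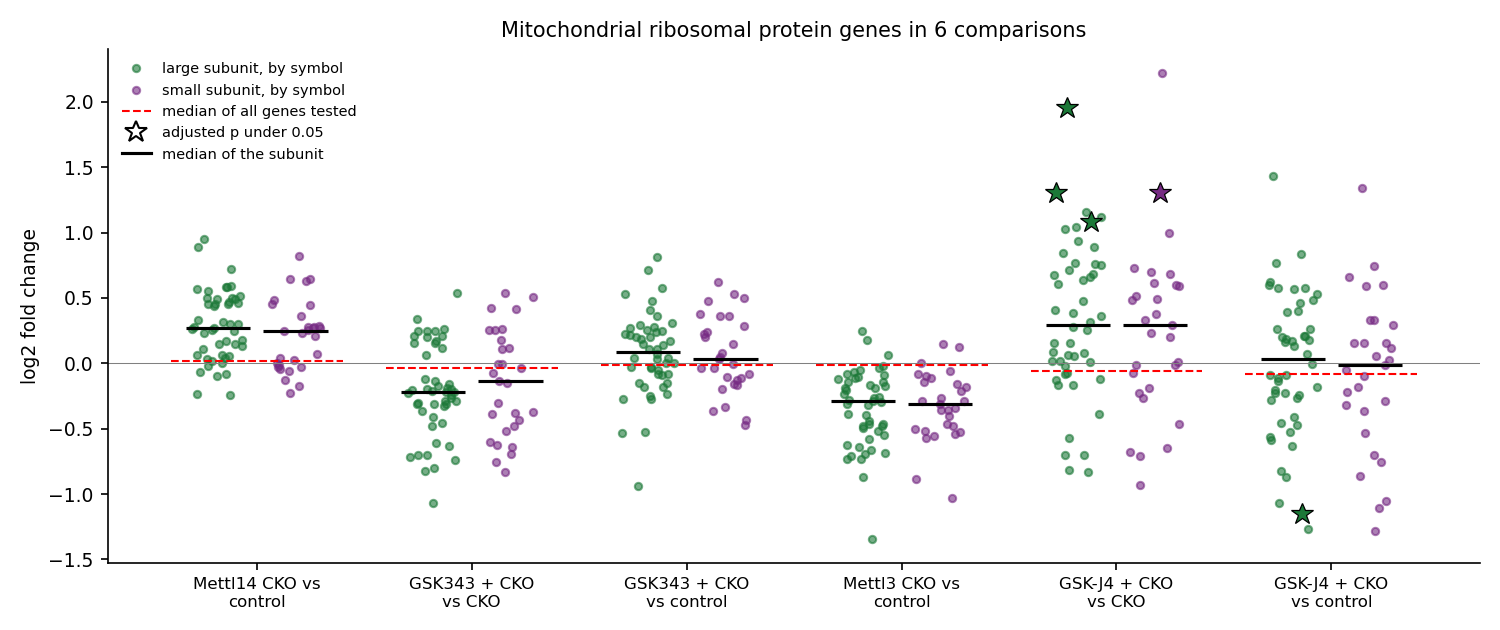
Log2 fold changes of the 77 members in 6 comparisons within the lines, split by subunit; black bars are subunit medians, dashed red lines the median of all genes tested, and stars mark an adjusted p under 0.05. Points sit mostly above the dashed line for the Mettl14 knockout and below it for the Mettl3 knockout, with no star, and spread widest with GSK-J4, where 4 stars lie above and 1 below.

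GSK-J4 gave the only called members. In the Mettl3 knockout, 4 members rose with the demethylase inhibitor and 0 fell, while 3.96% of the 16782 genes rose and 9.07% fell. A count of 4 in 77 is near the 3.96% background. The members' median was 0.29 against -0.06 for all genes, with 53 of 77 positive against 48.2%. The large subunit was at 0.30 and the small at 0.29 by symbol. Grouped by place in the structure, they were at 0.27 and 0.35. At an unadjusted p under 0.05 there were 16 members, against 28.5% of all genes, and DESeq2 called 13 higher and 0 lower, where it called 10.1% of all genes higher and 13.6% lower. Without GSK-J4 replicate 1 the median was 0.04, with 1 member called higher and 1 lower. The count of higher members was also 1 without control replicate 1 or knockout replicate 2 or 3, and 2 without control replicate 3, and 2 were lower without GSK-J4 replicate 3.

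Markers of cell types differed with GSK-J4 too. The 10 fibroblast or mesenchyme markers summed to 9810 to 16700 CPM with GSK-J4, against 32700 to 36500 CPM in untreated knockouts and 20800 to 30200 CPM in controls. The 4 epithelium markers summed to 12.5 to 123 CPM with GSK-J4, against 1.12 to 10.4 CPM in untreated knockouts and 1.59 to 5.72 CPM in controls, with Krt8 at a median of 0. The 5 neural or ectoderm markers summed to 55.3 to 65.4 CPM with GSK-J4, against 173 to 195 CPM in untreated knockouts and 111 to 148 CPM in controls, and the 7 mesoderm markers to 41.5 to 53.7 CPM, against 15.1 to 19.2 and 13.6 to 22.0 CPM. Sums of endoderm, pluripotency and macrophage markers with GSK-J4 overlapped those of untreated knockouts, at 8.63 to 16.5, 66.1 to 110 and 3.60 to 65.1 CPM with GSK-J4 against 1.80 to 16.5, 46.2 to 74.8 and 8.32 to 18.9 CPM. Their part in the members' values was not tested.

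Mrpl18, a large-subunit protein with a bacterial relative, was the member with the smallest adjusted p. It had 102.6, 149.8 and 125.3 CPM with GSK-J4, against 57.7, 56.1 and 44.4 CPM in untreated knockouts. All treated libraries were well above all untreated knockouts, while the controls, at 80.6, 104.9 and 76.6 CPM, overlapped the treated range. Against the untreated knockouts the log2 fold change was 1.30 ± 0.24 (adjusted p = 0.0047 by edgeR). Mrpl18 stayed called when any 1 library was left out. Exons of Tcp1, on the other strand, overlap 10.1% of its exon bases, and Tcp1 was at 0.12 ± 0.17 (adjusted p = 0.684).

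Mrpl47 (uL29m), which lies near the exit of the peptide tunnel, had 77.0, 38.6 and 22.9 CPM with GSK-J4, against 14.9, 8.95 and 13.1 CPM in untreated knockouts. The groups did not overlap, though the treated libraries differed widely among themselves. It rose by 1.95 ± 0.50 on the log2 scale (adjusted p = 0.0257 by edgeR). Its exons overlap those of Ndufb5 and Actl6a on the other strand over 24.2% of their bases, and without a known strand setting such reads cannot be assigned. Ndufb5, a subunit of respiratory complex I that starts from the same region, had 50.6, 42.7 and 43.0 CPM with GSK-J4, against 58.7, 36.5 and 38.9 CPM in untreated knockouts. Its log2 fold change was 0.07 ± 0.29 (adjusted p = 0.901 by edgeR).

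Mrps33 (mS33), a small-subunit protein without a bacterial relative, had 61.6, 49.1 and 68.7 CPM with GSK-J4, against 37.3, 14.3 and 23.6 CPM in untreated knockouts. It rose by 1.30 ± 0.37 (adjusted p = 0.0424 by edgeR) without overlap. Mrpl42 (mL42), a large-subunit protein found in mitochondria only, had 109.3, 69.0 and 100.0 CPM with GSK-J4, against 53.3, 41.2 and 41.4 CPM in untreated knockouts. It rose by 1.08 ± 0.26 (adjusted p = 0.0185 by edgeR), again with every treated library above every untreated one. The calls of Mrpl42, Mrpl47 and Mrps33 were each lost without knockout replicate 2 (adjusted p = 0.136, 0.141 and 0.204 by edgeR), without knockout replicate 3 (0.0939, 0.0939 and 0.154), without GSK-J4 replicate 1 (0.0626, 0.0952 and 0.0863) and without control replicate 1 (0.0712, 0.0647 and 0.113). Control replicate 3 (0.0518) and knockout replicate 1 (0.078) also ended the call of Mrpl47, and control replicates 2 (0.0802) and 3 (0.0868) and GSK-J4 replicate 3 (0.087) that of Mrps33.

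**Figure D4:**
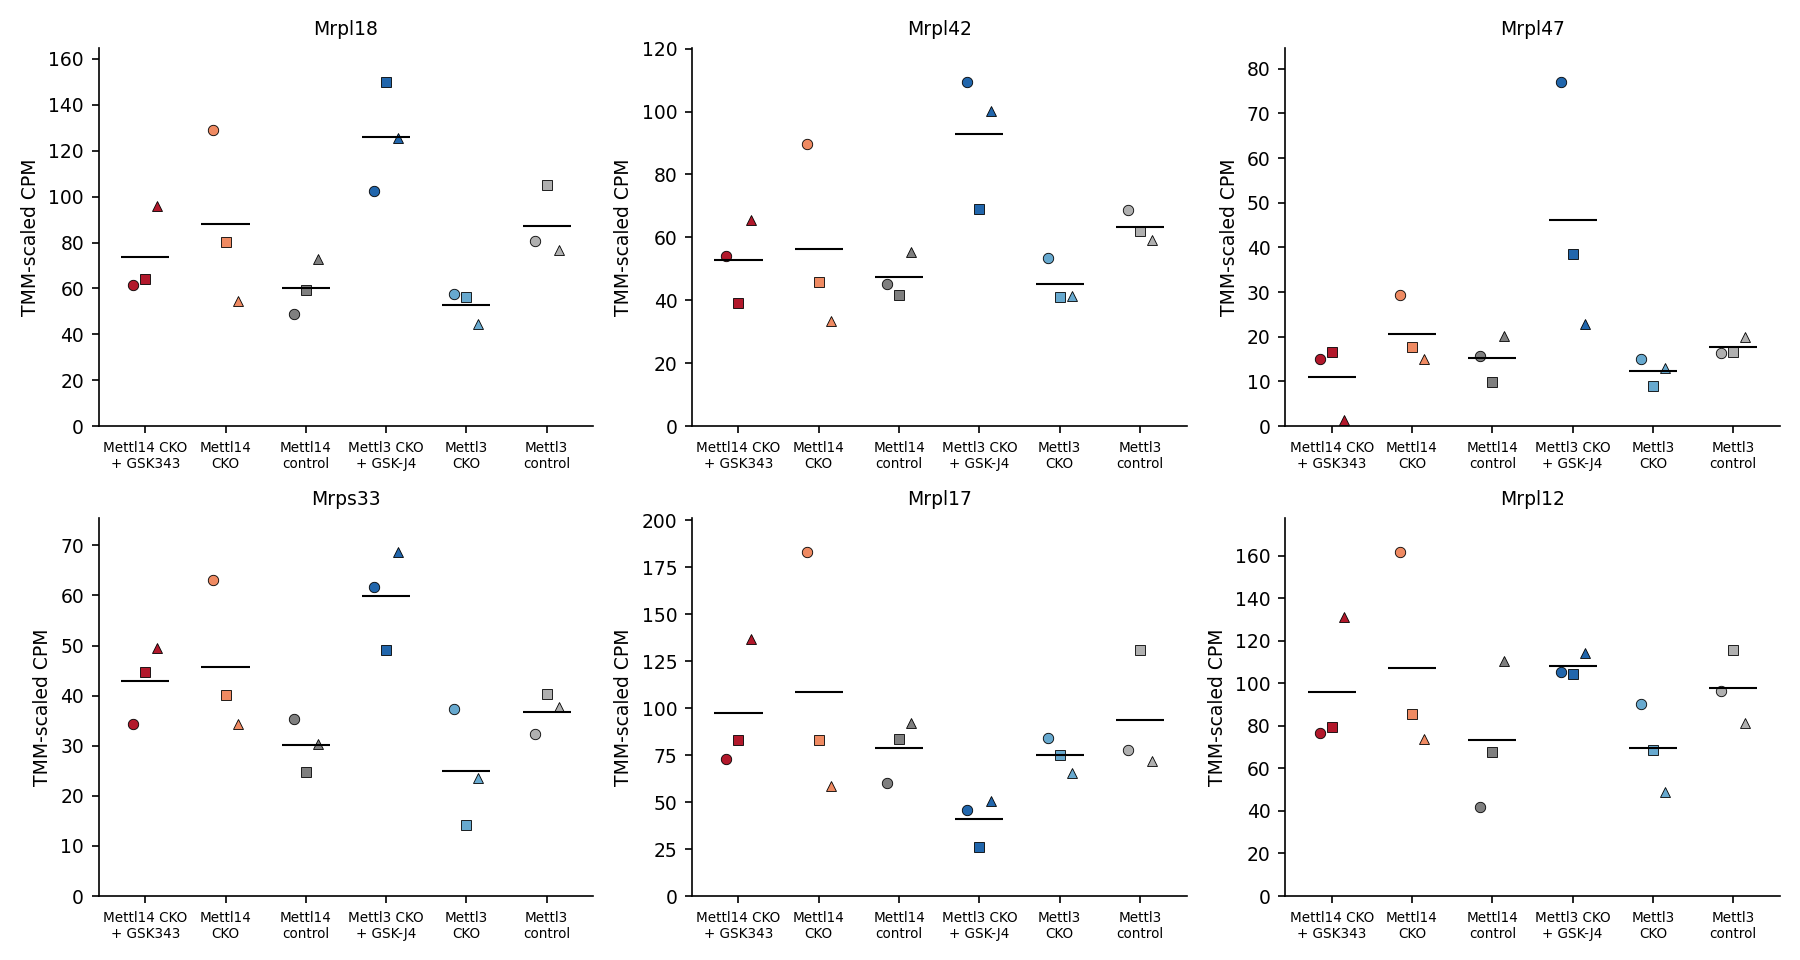
TMM-scaled CPM of 6 members in each library; circles, squares and triangles are replicates 1, 2 and 3, and bars are group means. With GSK-J4, every library of Mrpl42, Mrpl47 and Mrps33 lies above both other Mettl3 groups and every library of Mrpl17 below them, while Mrpl18 and Mrpl12 clear the untreated knockout but overlap the control.

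Without overlap 14 members were higher and 2 lower with GSK-J4, where 10.1% and 23.2% of all genes were. The 2 lower were Mrpl17 and Mrpl39. The largest log2 fold change was that of Mrps18c, at 2.22 ± 1.00, and it was not called (adjusted p = 0.17 by edgeR). Its treated libraries had 27.1, 1.31 and 16.7 CPM, against 4.99, 2.00 and 2.96 CPM in untreated knockouts, so replicate 2 went against the others. The paralogs Mrps18b and Mrps18a were at 0.70 and -0.46, and neither was called.

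Other members singled out by structure were not called with GSK-J4. Mrpl12 was at 0.69 with no overlap between groups, Mrpl11 at 0.76, Mrpl10 at 0.41 and Mrps12, the decoding-site protein uS12m, at 0.73. Mrpl58 (mL62), which releases peptides from stalled ribosomes, was at -0.16, Mrps30 at -0.07 and Mrps36 at -0.19 on the same log2 scale. In the Mettl3 knockout replicate 2, Mrpl11 had 0.57 CPM from 10 counts, against 20.01 and 9.82 CPM in the other untreated knockouts.

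The 33 members that share a start region with another gene had a median of 0.52 with GSK-J4 and the other 44 had 0.07. In each class 2 were called higher, where 3.96% of all genes were. The division was made after values had been seen and was not tested. In the same order, the medians were 0.23 and 0.28 in the Mettl14 knockout and -0.35 and -0.28 in the Mettl3 knockout. With GSK343 they were -0.20 and -0.22 against the knockout and 0.04 and 0.11 against the control. With GSK-J4 against the control they were 0.16 and -0.10. Among the 32 members whose partner was also tested, the median was 0.57 for the members and 0.20 for their partners, and 20 had the partner's sign. Mrpl46 and Mrps11 are partners of each other and were counted in both roles. The only called partner was Ppp1r10, which begins next to Mrps18b, at 1.20 ± 0.21 (adjusted p = 0.00388 by edgeR). Members with NRF1, ETS or YY1 letters in the promoter had a median of 0.52 with GSK-J4 against the untreated knockout, with 2 called of 35. Those with none had 0.25, with 2 called of 33, again beside 3.96% of all genes called higher.

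Against the controls, the knockout with GSK-J4 had 0 members higher and 1 lower, where 3.16% and 8.25% of all genes were called. The median was -0.01, with 39 of 77 negative, against -0.08 for all genes and 52.5% negative. DESeq2 called 3 higher and 4 lower, where it called 9.93% of all genes higher and 13.4% lower, and 7 members had an unadjusted p under 0.05, against 27.9% of all genes. Mrpl17 (bL17m), a large-subunit protein with a bacterial relative, was the one called. It had 46.0, 26.1 and 50.8 CPM with GSK-J4, against 77.8, 131.2 and 72.1 CPM in the controls. All treated libraries were below all controls, and it fell by 1.15 ± 0.33 on the log2 scale (adjusted p = 0.042 by edgeR). Leaving out any control library, any untreated knockout library or GSK-J4 replicate 2 ended that call, with an adjusted p of 0.051 to 0.197. Without GSK-J4 replicate 1 there were 4 members lower, and without replicate 3 there were 2 lower and 2 higher.

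Mrpl47 was at 1.44 ± 0.49 against the controls (adjusted p = 0.0832 by edgeR), with 16.4, 16.5 and 20.01 CPM in controls, and the groups did not overlap. Mrps6 was at -1.05 ± 0.34 (adjusted p = 0.0685 by edgeR) and Mrpl39 at -0.87 ± 0.28 (adjusted p = 0.071 by edgeR), both lower in every treated library. In all 5 members were higher and 8 lower without overlap, where 9.69% and 24.1% of all genes were. The comparisons of GSK-J4 with knockout and with control share the treated libraries. In each line, knockout against control and inhibitor against knockout share the untreated knockout libraries, which enter with opposite signs. The members' medians of -0.30 and 0.29 in the Mettl3 line, and of 0.26 and -0.21 in the Mettl14 line, are therefore not independent.

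The difference between the inhibitor effects, GSK343 minus GSK-J4, was called for 2 members, both lower, where 1.92% of the 16326 genes were lower and 8.3% higher. Mrpl18 differed by -1.57 ± 0.42 (adjusted p = 0.0171 by edgeR), having 61.3, 64.2 and 96.0 CPM with GSK343 against 129.1, 80.0 and 54.5 CPM in the untreated Mettl14 knockouts. Mrpl47 differed by -2.69 ± 0.78 (adjusted p = 0.0306 by edgeR), having 15.0, 16.7 and 1.46 CPM with GSK343 against 29.3, 17.8 and 14.9 CPM in the untreated Mettl14 knockouts, the 1.46 CPM being 1 count. Mrps33 at -1.40 ± 0.50 (adjusted p = 0.079) and Mrpl42 at -1.19 ± 0.45 (adjusted p = 0.104) were not called by edgeR. The median of all members was -0.37 against 0.13 for all genes, with 60 of 77 negative against 45.8%. At an unadjusted p under 0.05 there were 9 members, against 24.2% of all genes, and DESeq2 called 6 lower and 0 higher, where it called 4.94% of all genes lower and 10.5% higher. Without replicate 1 of the Mettl14 knockout the median was -0.03 and 0 members were called. Mrpl18 also missed the threshold without GSK343 replicate 1 (adjusted p = 0.0636) or 2 (0.0561) and without Mettl3 knockout replicate 3 (0.0584). Mrpl47 missed it without GSK343 replicate 1 (0.0509), any Mettl3 knockout replicate (0.0513 to 0.0831) or GSK-J4 replicate 1 (0.074). Without GSK-J4 replicate 2 there were 5 members called lower, and without GSK-J4 replicate 3 there was 1 called higher. Line and inhibitor cannot be told apart in this difference.

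The RNAs that this ribosome contains and translates moved otherwise with GSK-J4. The mRNAs of the mitochondrial genome summed to 1359, 934 and 1998 CPM with GSK-J4, against 22920, 25760 and 22260 CPM in untreated knockouts and 22270 to 26840 CPM in controls. Of these 13 mRNAs 9 fell and 1 rose against the untreated knockout, with a median log2 fold change of -4.39. mt-Co1, a core subunit of cytochrome oxidase, fell by 4.87 ± 0.26 on the log2 scale (adjusted p = 2.25e-06 by edgeR). The one that rose was mt-Nd6, which is encoded on the opposite strand of the mitochondrial DNA from the rest. It had 616, 405 and 524 CPM with GSK-J4, against 178, 146 and 213 CPM in untreated knockouts.

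The ribosomal RNAs mt-Rnr1 (small subunit) and mt-Rnr2 (large subunit) were looked at after values had been seen. They summed to 6355, 4686 and 5104 CPM with GSK-J4, against 8326, 9594 and 8200 CPM in untreated knockouts and 13950, 7570 and 11840 CPM in controls. mt-Rnr2 fell by 0.74 ± 0.20 on the log2 scale (adjusted p = 0.0348 by edgeR), and mt-Rnr1 was at -0.39 ± 0.29 (adjusted p = 0.398). The libraries were made from poly(A) RNA, so these levels are not those of the ribosome. The summed member mRNAs, at 3411, 2903 and 2944 CPM with GSK-J4, stood at or above 2 of the 3 untreated knockouts (2929, 2560 and 2133 CPM).

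**Figure D5:**
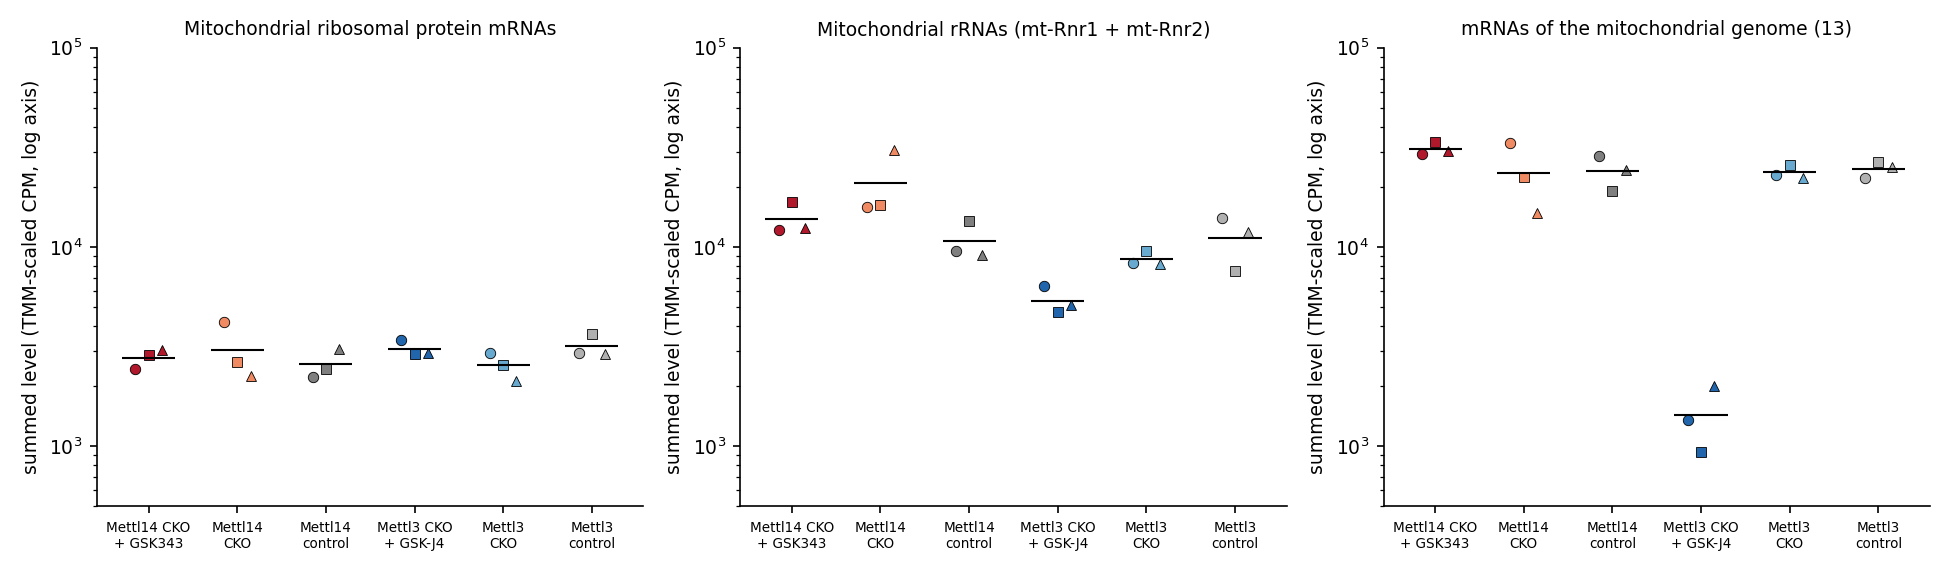
Summed TMM-scaled CPM (log axis, same scale) of member mRNAs, of the 2 mitochondrial rRNAs and of the 13 mRNAs of the mitochondrial genome in each library; circles, squares and triangles are replicates 1, 2 and 3, and bars are group means. GSK-J4 libraries are lowest in the right panel, at 934 to 1998 CPM, and in the middle panel, but lie among the other groups in the left panel.

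The 5 mitoribosomal proteins with other symbols were read beside the members. Chchd1 rose with GSK-J4, with 123.5, 43.1 and 145.9 CPM, against 45.3, 32.2 and 21.5 CPM in untreated knockouts. The groups overlapped, since treated replicate 2 was below the highest untreated library, and the log2 fold change was 1.70 ± 0.43 (adjusted p = 0.0257 by edgeR). Ptcd3 was at 0.87 ± 0.30 (adjusted p = 0.0795), Gadd45gip1 at -0.83 ± 0.50 (adjusted p = 0.301), Dap3 at 0.32 ± 0.44 (adjusted p = 0.676) and Aurkaip1 at -0.01 ± 0.27 (adjusted p = 0.993), all by edgeR. None of the 5 was called in any other comparison.

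Around the ribosome, 2 of 24 assembly and rRNA factors rose with GSK-J4 and 0 fell, with 20 positive and a median of 0.60, where 3.96% of all genes rose, 9.07% fell and the median was -0.06. They were Ngrn, at 1.45 ± 0.34 (adjusted p = 0.0178 by edgeR), which takes part in large-subunit rRNA metabolism, and the helicase Dhx30, at 0.72 ± 0.20 (adjusted p = 0.0373). Of 15 translation factors 0 rose and 1 fell, Lrpprc, which stabilises mitochondrial mRNAs, at -0.997 ± 0.264 (adjusted p = 0.0304 by edgeR). Of 22 synthetase genes that charge mitochondrial tRNAs 0 rose and 1 fell, Wars2, at -2.27 ± 0.63 (adjusted p = 0.0366 by edgeR). None of 15 genes for mitochondrial transcription and DNA passed, and their median was 0.43. Of 75 respiratory chain genes 1 rose and 1 fell (median 0.09), and of 81 cytosolic ribosomal protein genes 1 rose and 3 fell (median -0.24).

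Replicates of a member varied more in 2 groups than in the others. The median SD of log2 levels over members was 0.616 with GSK-J4 and 0.589 in the Mettl14 knockout, against 0.249 to 0.341 in the other groups. For 6961 genes at 10 to 100 CPM it was 0.713 with GSK-J4, 0.424 with GSK343, 0.385 in the Mettl14 knockout and 0.246 to 0.272 in the other groups. Counts were low in the shallowest library, where the median member had 26 counts in GSK343 replicate 3, against 1237 in Mettl3 control replicate 2. Mrpl14 and Mrps18c had 0 counts in GSK343 replicate 3 (limit 4.36 CPM), and Mrps11 and Mrpl27 had 0 in GSK-J4 replicate 3 (limit 0.506 CPM). By group mean, 33 of the 77 members were highest with GSK-J4 and 21 in the Mettl14 knockout, 13 in Mettl3 controls, 9 with GSK343, 1 in the Mettl3 knockout and 0 in Mettl14 controls. The lowest mean was with GSK-J4 for 18 members, in the Mettl3 knockout for 18, with GSK343 for 17, in Mettl14 controls for 15, in the Mettl14 knockout for 7 and in Mettl3 controls for 2. Such orders were not counted over all genes, so they do not set the members apart. The 2 groups with most of the highest means were also those with the widest spread.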

How the data were processed

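Poly(A) RNA of 18 libraries was measured. The deposited files hold raw read counts per gene; per the submitters' processing notes the authors used CASAVA, Trimmomatic 0.38, HISAT2 2.1.0, HTSeq and mm10, with the annotation release and strand setting of the counting not stated. Identifiers were matched to GENCODE M21 (54409 of 54446). Counts were tested by the quasi-likelihood F test of edgeR 4.0.16 under R 4.3.3 (low counts removed with filterByExpr, TMM scaling, Benjamini-Hochberg adjusted p under 0.05 over all genes tested), in 1 fit per line of 9 libraries, and on all 18 libraries for the 2 differences between lines, 8 comparisons in all. Standard errors of log2 fold changes were derived from the test, as the absolute log2 fold change divided by the square root of F. The fit was tested on simulated data. DESeq2 1.42.0, other scalings, filters, thinning and left-out libraries were alternatives. Total counts of 721853 to 32540164 put 3 counts at 4.36 to 0.0923 CPM; such limits cover counting error only. Named genes were the called members of a comparison (up to 10 in each direction) or, with under 4 called, the 4 with the smallest p, the 5 highest and 5 lowest per exon kb, and a set chosen by structure. Ndufb5, Tcp1, Ppp1r10 and the mitochondrial rRNAs were added after values were seen. Members and lists were chosen with earlier results of these data known.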

Additional observations from a re-analysis of the deposited data

Results flagged for a closer look

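For 2 members the effect of GSK343 in the Mettl14 knockout differed from that of GSK-J4 in the Mettl3 knockout by a test of the difference itself, GSK343 effect minus GSK-J4 effect. Each line received another inhibitor, so line and inhibitor cannot be told apart. For Mrpl47 the difference was -2.69 on the log2 scale (adjusted p = 0.0306 by edgeR), and for Mrpl18 it was -1.57 (adjusted p = 0.0171 by edgeR). Both lost the call without replicate 1 of the Mettl14 knockout (adjusted p = 0.11 and 0.0999). Groups of 3 libraries are too small for the check of single outlying samples.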

How the results depend on the processing

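No member called in a comparison, or among the 4 with its smallest p where under 4 were called, changed sign under an alternative. Genes named for level or structure alone were not followed. Among counts and medians of members under the alternatives, 49 moved (a count by over 1.5 times, a median by more than the spread between replicates) and 422 did not. Among the called or smallest-p members, 47 values lost a call and 18 gained one. For GSK-J4 against the untreated Mettl3 knockout, members called higher numbered 11 with library totals only, 13 with DESeq2, 2 with the replicate block and 1 with only the groups compared. DESeq2 called 10.1% of all genes higher there. Shares of all genes called are not given for the other alternatives or for left-out libraries. The counts under those, here and above, therefore show how calls moved and not how members stood against all genes. Leaving out 1 library gave 1 to 6 higher, 0 to 2 lower and a median of 0.041 to 0.37. Library totals alone moved that median to 0.53 and that of all genes to 0.19. For GSK-J4 against control, members called higher numbered 3 with library totals and 3 with DESeq2. Those called lower numbered 0 with RLE, library totals, the replicate block or only the groups compared, 2 without the filter or after thinning, and 4 with DESeq2 or all 18 libraries. Leaving out 1 library gave 0 to 2 higher, 0 to 4 lower and a median of -0.27 to 0.15, and library totals a median of 0.27. For the inhibitor difference, members called lower numbered 6 with DESeq2, 1 with the replicate block and 0 with only the groups compared, and 1 was called higher after thinning. Leaving out 1 library gave 0 to 1 higher, 0 to 5 lower and a median of -0.53 to -0.033. The knockout difference had a median of 0.26 to 0.76. The cause of these shifts was not tested. Replicate numbers did not pair the samples: correlations of same-numbered deviations were -0.12 to 0.1 in the Mettl14 line and -0.027 to 0.071 in the Mettl3 line. Under the block Mrpl47 (adjusted p = 0.0588) and Mrps33 (0.0693) missed the threshold with GSK-J4, as did Mrpl17 against control (0.101) and Mrpl47 in the inhibitor difference (0.0695), all by edgeR. Depth limits GSK343 replicate 3 most, where the median member had 26 counts.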
